A study of Mus musculus with 6 samples.

Results

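The transcription factors that build the osteoblast lineage were examined in cultured mouse bone marrow stromal cells with and without the NONMMUT002667 gene. They are Runx2, Sp7, Dlx3, Dlx5, Dlx6, Msx1, Msx2, Runx1 and Twist1, chosen for their known role in osteoblast formation. Probes were selected by the gene name in the scanner files, which gave 9 genes of the 27261 named on the array and 16 of its 56605 probes. The wild-type group (WT) held 3 samples of stromal cells from wildtype mice, and the knockout group (KO) held 3 samples from NONMMUT002667-KO mice. Both groups are labelled male, and strain, age, the design of the knockout allele and how many animals made up each sample are not given in the sources used here. Per the labels' protocols, the cells were released from crushed femurs by collagenase, sorted for Sca-1 and CD29 without CD45 or CD11b, and then cultured. The description field and the RNA protocol speak of human blood instead, so the titles and source names were followed for the groups.

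Runx2 binds DNA together with Cbfb and is required for mesenchymal cells to become osteoblasts. Sp7, also called osterix, acts downstream of Runx2 and carries cells on to mature osteoblasts. The homeodomain factors Dlx3, Dlx5 and Dlx6 are induced by bone morphogenetic proteins and favour the osteoblast programme, while Msx1 and Msx2 are homeodomain factors of skeletal progenitors. Twist1 is a basic helix-loop-helix factor that can hold Runx2 protein inactive in early progenitors, and Runx1 is a Runx2 paralog of skeletal progenitors and of blood cells.

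Each sample was hybridised in 1 colour (Cy3) to 1 Agilent array. All 6 arrays lay on 1 slide and were scanned together, with the WT arrays in row 1 and the KO arrays in row 2 of the slide, so slide row and genotype cannot be told apart. On the WT arrays 54.3% to 56.7% of the non-control spots passed the scanner software's test as well above background, and on the KO arrays 49.0% to 53.0%. Signals are given as log2 of the processed signal minus the 75th percentile of the same array, so 0 is the level of that percentile, and the brightness of different probes cannot be compared as transcript levels. Differences are KO minus WT on this log2 scale. They were tested in limma with Benjamini-Hochberg adjustment over all 28607 tested probes, and a probe was called at an adjusted p under 0.05. The spread behind each p-value is that between these samples. It may be partly technical, since some samples of a group may share animals. Xist, which is made by cells with an inactive X chromosome, exceeded background clearly in WT replicate 3 and KO replicate 1 alone, although all samples are labelled male. Eif2s3y, a gene of the Y chromosome, read -6.72 and -6.32 on these arrays and 1.04 to 1.17 on the others. By these genes each group held samples of both sexes, and so came from more than 1 animal. A lower signal from a bulk culture can come from fewer cells of a type or from less RNA per cell, and these cannot be told apart here.

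The probes are 60 bases long and their first 30 bases are shown for Runx2 because its 3 probes gave different answers. The capitals mark the start codon of the isoform made from the distal Runx2 promoter.
5′ probe: aaaggagggactATGgcgtcaaacagcctc
middle probe: gcagcacgctattaaatccaaatttgccta
far 3′ probe: tgattgtttttctcatttatacctacattt
All 3 lie on the minus strand of chromosome 17 (build mm9). The 5′ probe (chr17:44951128-44951187) starts at base 192 of its transcript, and the middle probe (chr17:44744925-44744984) at base 1660. Both are assigned to the protein-coding transcript NM_009820, among others. The far 3′ probe (chr17:44633034-44633093) is assigned to NR_073425, a RefSeq transcript of Runx2 classed as non-coding, and to predicted transcripts. Along the gene the middle probe lies 206.2 kb and the far 3′ probe 318.1 kb downstream of the 5′ probe. Exon and UTR boundaries of this build were not used here.

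The promoter windows of Runx2 and of its paralog Runx1 are shown because both hold the sequence that RUNX proteins bind. Each window covers 250 bases before to 50 after a RefSeq start site (build GRCm38.p6), and capitals mark the RUNX core TGTGGT on either strand, written ACCACA on the other.
Runx2, chr17:44814578-44814877, minus strand: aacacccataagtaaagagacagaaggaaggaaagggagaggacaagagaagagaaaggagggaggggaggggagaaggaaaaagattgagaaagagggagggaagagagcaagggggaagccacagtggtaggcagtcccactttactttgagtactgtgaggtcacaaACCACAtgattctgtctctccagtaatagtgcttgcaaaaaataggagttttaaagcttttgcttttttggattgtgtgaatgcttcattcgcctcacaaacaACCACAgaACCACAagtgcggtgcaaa
Runx1, chr16:92826025-92826324, minus strand: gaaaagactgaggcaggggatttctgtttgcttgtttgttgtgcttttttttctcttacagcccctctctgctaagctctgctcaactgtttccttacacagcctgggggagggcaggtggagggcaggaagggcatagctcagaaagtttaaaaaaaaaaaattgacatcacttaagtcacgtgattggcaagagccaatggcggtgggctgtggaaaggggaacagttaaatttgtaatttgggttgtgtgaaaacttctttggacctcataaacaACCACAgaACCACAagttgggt
The Runx2 window holds 3 RUNX cores and the Runx1 window 2. A core occurs in 16.8% of the 32841 RefSeq promoter windows of this length. The longest run the pair shares is 22 bases, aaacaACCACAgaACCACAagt, which begins 19 bases downstream of the Runx2 start site and 24 bases downstream of the Runx1 start site, and it contains 2 of the cores. RefSeq windows were found for 5 of the 9 genes (Runx2, Msx1, Msx2, Runx1 and Twist1), with 6 windows in all, and the other windows (Msx1, Msx2, Twist1 and the downstream Runx1 window) hold no RUNX core. Sp7, Dlx3, Dlx5 and Dlx6 are named only. The homeodomain core TAATTA, which reads the same on both strands, occurs in the Msx2 window and in 5.29% of all windows. A match is a description of the letters and was not tested for binding.

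No member passed the threshold over all probes, and the differences had both signs, with all 3 Runx1 probes and the 5′ Runx2 probe on the positive side. Of the 16 probes, 12 had a negative difference, against 43.8% of all tested probes. The middle Runx2, dimmest Sp7 and Dlx6 probes entered the test through WT alone, with 2, 1 and 1 KO arrays well above background. Their negative sign was thus favoured by the filter. The median difference was -0.37 over the 16 probes and 0.02 over all tested probes. The adjusted p of the members lay between 0.0593 and 0.857, with 0 of 16 called. Of all probes 0.0594% were called, 0.0489% as lower and 0.0105% as higher in KO. At an unadjusted limma p under 0.05, 6 member probes were lower in KO and 1 was higher, where 7.28% of all probes were lower and 8.24% higher. With only probes well above background on all 6 arrays, 13 member probes were left. Of these, 7 passed that p, 6 of them lower in KO. With arrays centred on their median the lower share among all probes at that p was 58.2%, against 46.9% in the main scaling. In 7 probes, from Runx2 (2), Sp7 (2), Dlx3, Msx2 and Twist1, every KO value lay below every WT value, a pattern found in 9.57% of all probes. In 1 probe, of Runx1, every KO value lay above every WT value, as in 12.6% of all probes. Probes of the same gene share a target, so by gene the count was 8 negative of 9 brightest probes (44.2% over all genes), with a median of -0.32. Among these 9, the groups did not overlap for 5, all lower in KO (10.4% over all genes). Runx2 enters the count by gene through its far 3′ probe (-1.24), while its middle and 5′ probes had differences of -0.75 and 0.07.

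**Figure D1:**
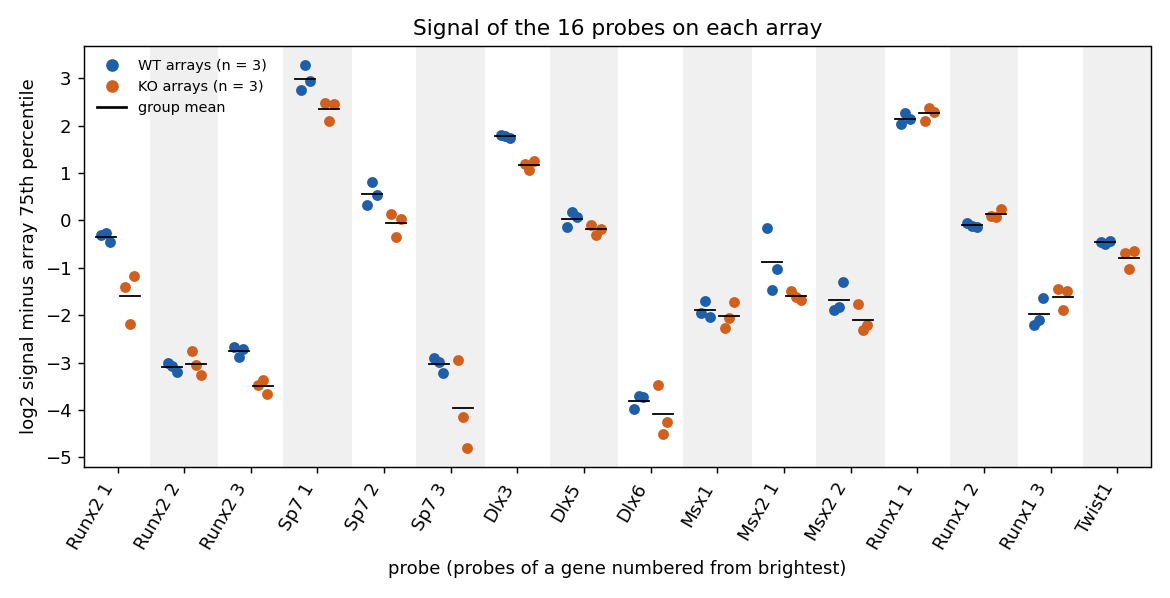
Log2 signal relative to the array's 75th percentile (vertical axis) for each of the 16 probes (horizontal axis), with 3 WT and 3 KO arrays as points and group means as bars. KO points lie below WT points in 7 probes, including 2 of Runx2 (Runx2 1 is the far 3′, Runx2 2 the 5′ and Runx2 3 the middle probe), 2 of Sp7 and the Dlx3 and Twist1 probes, and above them in 1 Runx1 probe.

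Runx2 signal was lower on all 3 KO arrays at the middle and far 3′ probes and overlapped between the groups at the 5′ probe. At the far 3′ probe the WT arrays read -0.31, -0.27 and -0.45 and the KO arrays -1.39, -2.19 and -1.18. The groups did not overlap, and KO replicate 2 was the lowest. The difference was -1.24 (SE 0.25, n = 3 each), a 2.36-fold lower signal, with a limma adjusted p of 0.101 (unadjusted p = 0.00192). At the middle probe the WT arrays read -2.68, -2.87 and -2.72 and the KO arrays -3.48, -3.36 and -3.66, again with no overlap. This probe was not well above background on the array of KO replicate 3. Its difference was -0.75 (SE 0.10), or 1.68-fold lower, with a limma adjusted p of 0.0646. It passed the threshold with arrays centred on their median (limma adjusted p = 0.0481) and with normexp and quantile normalization (limma adjusted p = 0.0489). Over all alternatives its limma adjusted p ranged from 0.0481 to 0.210.

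At the 5′ probe, by contrast, the WT arrays read -3.01, -3.08 and -3.19 and the KO arrays -2.76, -3.06 and -3.25, and the groups overlapped. The difference was 0.07 (95% interval -0.25 to 0.39; limma adjusted p = 0.857), which leaves room for a difference in either direction, and it ranged from -0.06 (without KO replicate 1) to 0.18 (without KO replicate 3). This probe was well above background on all 6 arrays, but its mean over them was -3.06, close to the -3.13 of the middle probe, so both read dim signals. Within each array, the far 3′ probe stood above the 5′ probe by 2.70, 2.81 and 2.74 in WT and by 1.37, 0.87 and 2.08 in KO. The KO distances were smaller on every array, with no overlap (KO minus WT -1.31; exact permutation test, two-sided, p = 0.1). The distance between the middle and 5′ probes differed by -0.82 (exact permutation p = 0.1), and that between the far 3′ and middle probes by -0.49 (exact permutation p = 0.3). With 3 against 3 arrays 0.1 is the smallest p this test can give.

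**Figure D2:**
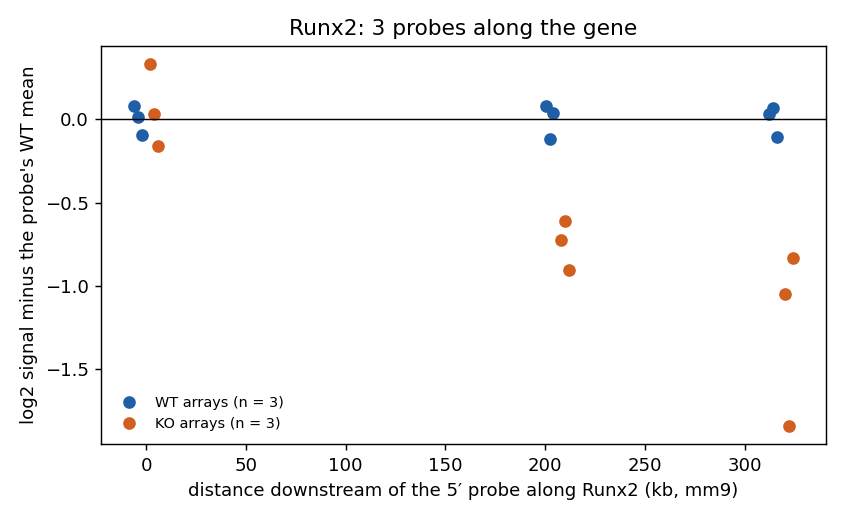
Log2 signal of each array minus the WT mean of the same probe (vertical axis) against the distance in kb downstream of the 5′ probe (horizontal axis), for 3 WT and 3 KO arrays at the 3 Runx2 probes. The groups overlap at the 5′ probe and are separate at 206.2 and 318.1 kb, and points are shifted slightly sideways to be visible.

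Sp7 signal was lower in KO by a like amount at its brightest probes. At the brightest (chr15:102187136-102187195, mm9) the WT arrays read 2.74, 3.28 and 2.95 and the KO arrays 2.48, 2.10 and 2.46. No KO value reached the WT range, though the nearest arrays, WT replicate 1 and KO replicate 1, lay close together. The difference was -0.65 (SE 0.17), or 1.57-fold lower, with a limma adjusted p of 0.157. The next probe (chr15:102187692-102187751) had WT values of 0.33, 0.81 and 0.53 and KO values of 0.14, -0.35 and 0.04, a difference of -0.62 (SE 0.17; limma adjusted p = 0.178). Within arrays the distance between these probes was 2.43 ± 0.03 in WT and 2.40 ± 0.06 in KO (SD, 3 arrays each; exact permutation p = 0.6). The third probe (chr15:102188735-102188794) was well above background on 1 of 3 KO arrays. It read -2.90, -2.98 and -3.22 in WT and -2.95, -4.15 and -4.80 in KO, so KO replicate 1 lay within the WT range (difference -0.93, SE 0.43; limma adjusted p = 0.365). Leaving out 1 array moved it from -1.44 (KO replicate 1 left out) to -0.52 (KO replicate 3 left out).

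Among the Dlx genes, Dlx3 was the member with the smallest p. Its single probe (chr11:94986262-94986357, mm9) read 1.80, 1.78 and 1.75 on the WT arrays and 1.20, 1.06 and 1.26 on the KO arrays. The WT values lay close together, all well above the KO values. The difference was -0.60 (SE 0.08), or 1.52-fold lower, with a limma adjusted p of 0.0593 and a range of 0.0309 to 0.197 over the alternatives. It passed the threshold with a variance trend (limma adjusted p = 0.0309) and with normexp and quantile normalization (limma adjusted p = 0.0456).

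Dlx5 and Dlx6 are neighbours on chromosome 6 and are transcribed towards each other. The Dlx5 probe (chr6:6828063-6828122) read -0.14, 0.17 and 0.08 in WT and -0.09, -0.30 and -0.18 in KO. The groups overlapped through WT replicate 1 and KO replicate 1, with a difference of -0.22 (95% interval -0.49 to 0.04; limma adjusted p = 0.390). The Dlx6 probe (chr6:6815092-6815151) was dim, between -3.97 and -3.71 in WT and between -4.51 and -3.46 in KO, and well above background on 1 of 3 KO arrays. KO replicate 1 was the highest of all 6 arrays and the other KO arrays were the lowest. The Dlx6 difference was -0.27 (95% interval -0.90 to 0.35; limma adjusted p = 0.679), and leaving out 1 array moved it from -0.58 (without KO replicate 1) to -0.05 (without KO replicate 2).

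Neither Msx gene passed the test. Msx1 (chr5:38212041-38212100) lay between -2.03 and -1.70 in WT and between -2.27 and -1.73 in KO. Its difference was -0.13 (95% interval -0.50 to 0.25; limma adjusted p = 0.765), and it ranged from -0.27 (without KO replicate 3) to 0.0018 (without KO replicate 1). Msx2 had 2 probes. The brighter one (chr13:53562318-53562377) read -0.16, -1.46 and -1.03 in WT and -1.48, -1.62 and -1.67 in KO. WT replicate 1 stood well above the other arrays, and WT replicate 2 lay only just above the KO values. The difference was -0.71 (SE 0.31; limma adjusted p = 0.337), and it ranged from -0.99 (without WT replicate 2) to -0.34 (without WT replicate 1). The other Msx2 probe (chr13:53563333-53563392) lay between -1.89 and -1.30 in WT and between -2.32 and -1.75 in KO, with overlap (difference -0.42, SE 0.21; limma adjusted p = 0.403). Without WT replicate 3 this difference was -0.23, and without KO replicate 1 it was -0.59. It did not show the high value of WT replicate 1.

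Twist1 was lower in KO by a small amount. Its probe (chr12:34644411-34644470) read -0.45, -0.50 and -0.44 on the WT arrays and -0.68, -1.03 and -0.65 on the KO arrays. The groups did not overlap, and KO replicate 2 was the lowest. The difference was -0.32 (SE 0.12), or 1.25-fold lower, with a limma adjusted p of 0.264, and it was -0.20 without KO replicate 2.

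Runx1 was the only member without a negative difference at any of its probes. The brightest probe (chr16:92602576-92602635) read 2.03, 2.27 and 2.14 in WT and 2.11, 2.38 and 2.30 in KO. These values overlapped, with a difference of 0.11 (95% interval -0.14 to 0.37; limma adjusted p = 0.660). A second probe (chr16:92605785-92605844) read -0.05, -0.11 and -0.14 in WT and 0.09, 0.08 and 0.24 in KO, with every KO value above the WT values. Its difference was 0.23 (SE 0.08), 1.18-fold higher, with a limma adjusted p of 0.244. The third probe (chr16:92697238-92697297), which starts at base 277 of its transcript, differed by 0.37 (SE 0.19; limma adjusted p = 0.403), with values from -2.20 to -1.64 in WT and from -1.89 to -1.44 in KO. The 3 Runx1 differences were positive under all scalings and alternatives tried. Whether Runx1 differs from Runx2 in its response was not tested.

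**Figure D3:**
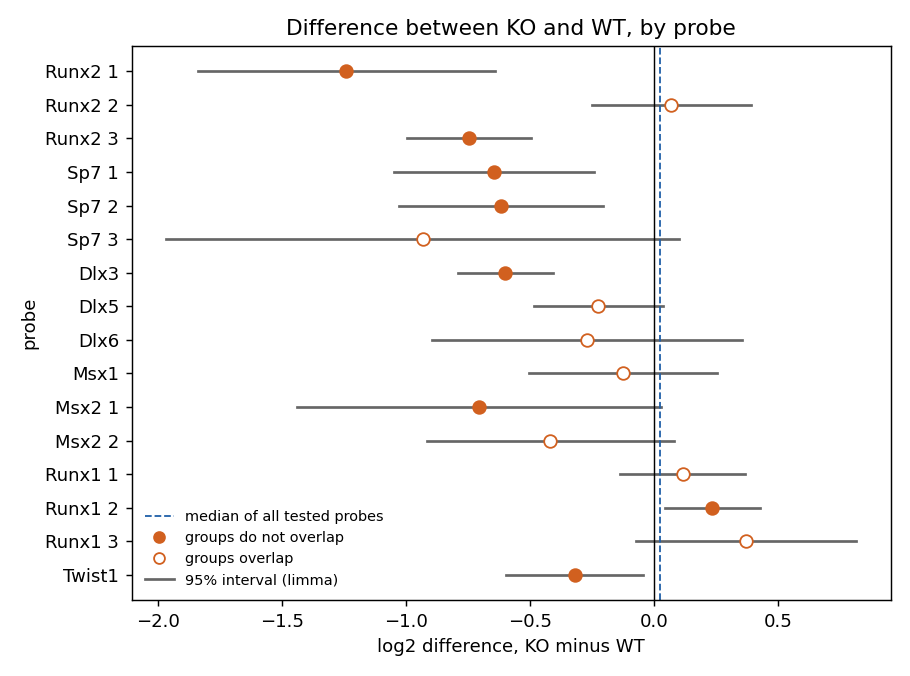
Log2 difference, KO minus WT (horizontal axis), for each of the 16 probes (vertical axis), with 95% limma intervals from 3 arrays per group. Filled points mark probes whose groups do not overlap, and the dashed line marks the median of all tested probes (0.02). Differences run from -1.24 for the far 3′ Runx2 probe (Runx2 1) to 0.37 for Runx1 3.

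Close paralogs and partners of the members were measured on the same arrays. Of 14 listed, 9 were tested, 5 with a negative difference and 0 called (0.0781% over all genes). At an unadjusted limma p under 0.05, 3 were lower and 0 higher, where 8.03% of all genes were lower and 6.94% higher. Sp6, a paralog of Sp7, had 1.20 ± 0.09 in WT and -0.03 ± 0.42 in KO (SD, 3 arrays each; difference -1.23, SE 0.21; limma adjusted p = 0.0809). This was close in size to the Runx2 far 3′ difference, but a second Sp6 probe differed by only -0.58 (SE 0.13; limma adjusted p = 0.120). Runx3 differed by -0.43 (SE 0.10; limma adjusted p = 0.131), so the Runx paralogs had differences of both signs. The Dlx4 probe entered the test through WT alone, which favoured its negative sign, and did not exceed background clearly in any KO sample. Set against the dimmest clear signals it was 1.36-fold lower there, a bound without sampling error. The measured difference was -0.68 (95% interval -1.31 to -0.05, limma adjusted p = 0.292). Cbfb, the shared partner of the RUNX proteins, named here after its values were seen, had 4.38 ± 0.12 in WT and 4.36 ± 0.09 in KO (difference -0.02, 95% interval -0.24 to 0.21; limma adjusted p = 0.959).

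Of 41 cofactors of Runx2 and Sp7 and other bone transcription factors, 35 were tested. Of these, 21 had negative differences (44.2% over all genes), with a median of -0.10 and 0 called (0.0781% over all genes). At an unadjusted limma p under 0.05, 6 were lower and 1 higher, against 8.03% and 6.94% of all genes. The smallest p was that of Tcf7, a transcription factor of Wnt signalling, at -0.84 (SE 0.12; limma adjusted p = 0.0639). Alx4, a homeodomain factor of skull and limb, had -0.99 (SE 0.26; limma adjusted p = 0.161).

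Of 25 upstream bone signals, such as ligands and receptors that act on the members, 23 were tested. A negative difference was found in 20 of them (44.2% over all genes), and the median was -0.23 with 0 called (0.0781% over all genes). At an unadjusted limma p under 0.05, 10 were lower and 1 was higher, against 8.03% and 6.94% of all genes. The lower ones include Bmp7 and Ihh, each well above background on 1 of 3 KO arrays. Both entered the test through WT alone, so their negative sign was favoured by the filter. Bmp2, a ligand that induces Dlx3, Dlx5 and Runx2, had -0.06 ± 0.31 in WT and -1.18 ± 0.23 in KO (difference -1.12, SE 0.19; limma adjusted p = 0.0809). Pth1r, the receptor for parathyroid hormone, differed by -0.74 (SE 0.13; limma adjusted p = 0.0823). Igf1, a growth factor, was the 1 higher member at 0.44 (SE 0.08; limma adjusted p = 0.0932).

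Genes listed here as targets of Runx2 and Sp7 in osteoblasts were the list with the largest median difference of those plotted. Since the list was chosen with earlier results of these data known, its median and calls are a description. Of 25 listed, 23 were tested and 17 had a negative difference (44.2% over all genes), with a median of -1.07. In 16 of them every KO value lay below the WT values (10.4% over all genes), and 3 were called, all lower in KO (0.0651% over all genes). In 1, Spp1, which encodes osteopontin and is named here after its values were seen, every KO value lay above the WT values (12% over all genes), with a difference of 0.25 (SE 0.09; limma adjusted p = 0.259). Ibsp, which encodes bone sialoprotein, fell by 1.73 (SE 0.16; limma adjusted p = 0.0496), and Fmod, the proteoglycan fibromodulin, by 2.43 (SE 0.23; limma adjusted p = 0.0496). Phospho1, a phosphatase of matrix vesicles, was too dim in KO to be measured and at least 1.51-fold lower (limma adjusted p = 0.0496). It entered the test through WT alone, so its negative sign was favoured by the filter. These calls rest on adjusted p-values just under the threshold: among all related lists 3 probes were called, but 0 without WT replicate 1, 2 or 3 or KO replicate 2, and 1 without KO replicate 1 or 3.

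Transcription factors of other mesenchymal fates had differences of both signs. Of 10 listed, 9 were tested, with 4 negative (44.2% over all genes) and 5 positive differences. The median was 0.07, with 0 called (0.0781% over all genes). Scx, the tendon factor scleraxis, had -1.11 (SE 0.20; limma adjusted p = 0.0887). Sox5, a factor of cartilage, had 0.26 (SE 0.08; limma adjusted p = 0.217) and Pparg, the main factor of adipocytes, 0.27 (SE 0.10; limma adjusted p = 0.273).

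**Figure D4:**
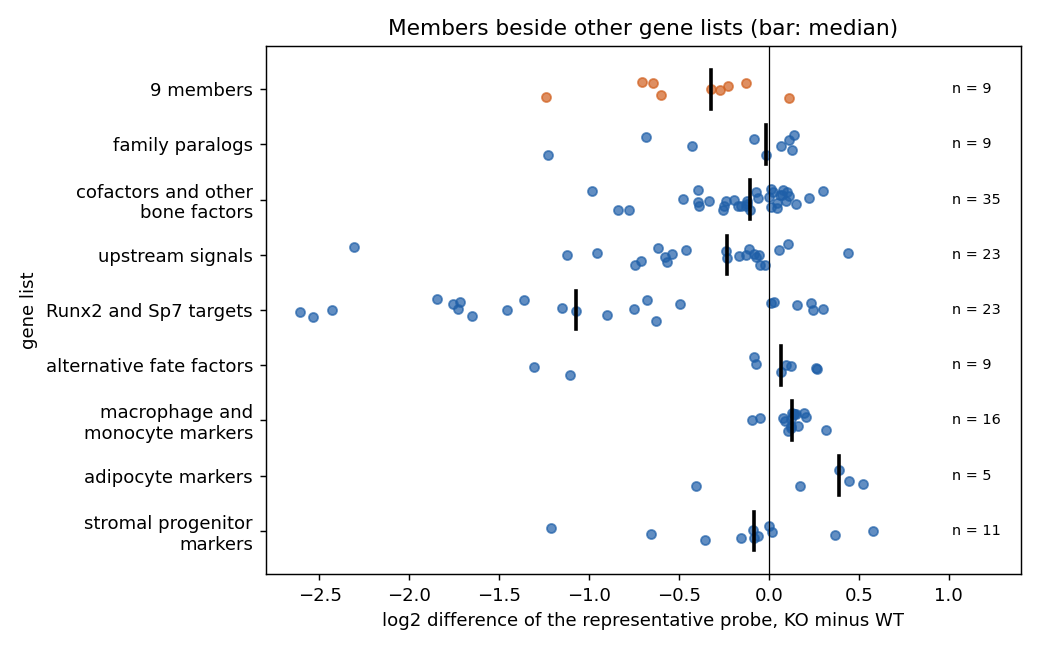
Log2 difference, KO minus WT (horizontal axis), of the brightest tested probe of each gene, for the 9 members and 8 other gene lists (vertical axis), from 3 arrays per group. Black bars are medians, -0.32 for the members, -1.07 for the Runx2 and Sp7 targets and 0.13 for the macrophage and monocyte markers, and the up and down spread within a row has no meaning. Runx2 is shown by its far 3′ probe (-1.24), while its middle and 5′ probes had -0.75 and 0.07.

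Markers of other cell types were measured beside these results. Macrophage and monocyte markers, of cells the sort was set to exclude, were well above background on all 6 arrays in 16 of 16 cases. A positive difference was found in 14 (8581 of 15370 over all genes), with a median of 0.13 and 0 called (0.0781% over all genes). The log2 of their summed signal was 10.12 to 10.17 in WT and 10.22 to 10.30 in KO, with no overlap. Runx1 is also made by blood cells, and whether its positive differences are linked to these markers was not tested. Of 6 adipocyte markers 5 were tested, 4 with a positive difference (8581 of 15370 over all genes). The summed level was 6.23 to 6.36 in WT and 6.64 to 6.99 in KO, without overlap and with Cidec not above background. That sum is almost wholly Lpl (mean 5.90 in WT and 6.42 in KO) and Fabp4 (4.19 and 4.58). The groups did not overlap for Lpl, Fabp4 and the dim Plin1, and overlapped for Lep and Adipoq. Adipoq had the negative difference (-0.41, SE 0.48; limma adjusted p = 0.742) and was well above background on 1 of 3 KO arrays. Whether KO held more adipocytes was not tested. The part of these cells in the members' differences was not tested. The stromal progenitor markers were all tested, with 7 negative (44.2% over all genes) and 4 positive differences. Their summed level was 6.37 to 6.43 in WT and 6.30 to 6.48 in KO. This list includes Ly6a and Itgb1, which encode the sort markers Sca-1 and CD29, and both were well above background on all 6 arrays.

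Of the remaining marker lists, the summed log2 level of the erythroid and megakaryocyte list did not overlap between groups and the others did. The level was 7.96 to 8.09 in WT and 8.04 to 8.19 in KO for smooth muscle and pericyte markers (Rgs5 not above background), and 4.79 to 5.45 and 4.75 to 5.15 for osteoclast markers (Calcr not above background). Chondrocyte markers had 1.07 to 1.5 in WT and 0.81 to 2.11 in KO, and Acan, Matn1 and Matn3 were not above background on any array. Neutrophil markers had 3.02 to 3.26 and 2.95 to 3.95, without Cxcr2, and lymphocyte markers 0.89 to 1.29 and 0.97 to 1.1, with Cd79a, Nkg7 and Cd3g among those not above background. Endothelial markers had 1.20 to 1.53 and 1.47 to 1.63, without Tek and Tie1. Erythroid and megakaryocyte markers had 5.62 to 5.79 and 5.86 to 6.19, with Gata1, Alas2, Gp9 and Hbb-b1 among those not above background. That sum is almost wholly the platelet factor Pf4, at 5.70 ± 0.10 in WT and 5.96 ± 0.18 in KO (SD, 3 arrays each), while Epor and Klf1 overlapped between groups. The part of any of these in the members' differences was not tested.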

How the data were processed

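RNA of 3 WT and 3 KO samples was measured on 1-colour Agilent arrays. Per the file headers, spot intensity was extracted and background-corrected with Feature Extraction 10.7.1.1, while the version in the submitters' processing notes is 9.1. The authors' deposited series table holds log2 values with the same sorted values in each column. Groups and replicate numbers came from the titles. Here, log2 processed signals were scaled to each array's 75th percentile, outlier spots (49 to 131 per array) were left out and spots of a probe were averaged. Of 56605 probes, 28607 had at least 2 values per group and signal well above background throughout WT or throughout KO, and all 16 member probes qualified. Differences were tested with limma 3.58.1 in R 4.3.3 (two-sided, group as the only term). Genes other than the members were named through RefSeq accessions of GRCm38.p6 (32994 probes), symbols (10224) or synonyms (523), and represented by their brightest tested probe. The rule for the members used their known role and no measured value, but members, gene lists and tests were all chosen with earlier results of these data known. Named genes are the members and, per related list, the called genes and up to 3 with the smallest p. Some genes that this rule or the marker lists would name are not reported here. For a probe too dim on all KO arrays, the fold was computed against the dimmest signals well above background on each array. It is a lower bound on the ratio of group means without sampling error, and the p rests on signals as measured. On data simulated for KO against WT over 28607 probes, 149 of 200 changes of 1 on the log2 scale and 186 of 200 changes of 2 were recovered, each with 10 false calls. These shares hold for that simulation and are not the chance of calling a member. At the far 3′ Runx2 probe, a measured difference of -1.24 was not called. The number of arrays limits the precision.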

Additional observations from a re-analysis of the deposited data

How the results depend on the processing

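No member passed under the main setting. With arrays centred on their median 1 did (the middle Runx2 probe), with a variance trend 1 (Dlx3) and with normexp and quantile normalization 2 (both). The count stayed at 0 with the deposited series table, without the dim filter, with only probes that passed background on every array (13 member probes left), without the 2 arrays with Xist signal, with the replicate number as a block, and without any 1 array. The member probes lower in KO at an unadjusted p under 0.05, 6 in the main setting, were 5 to 9 over all alternatives. Over refits of single member probes, 214 kept their direction and side of the threshold, 4 passed it and 3 changed sign. The 5′ Runx2 probe was -0.11 without the 2 arrays with Xist signal and -0.062 to 0.18 when leaving out 1 array (-0.062 without KO replicate 1), and Msx1 was -0.27 to 0.00 (0.0018 without KO replicate 1). Over the whole array 17 probes were called, against 101 with median centring, 215 with normexp and quantile normalization, 220 with a variance trend, 9 with probes past background on every array, 0 without the filter (limma, 18002 at an unadjusted p under 0.05), 0 with the replicate block (4648 at that p) and 2 to 31 without 1 array (2, 4 and 31 without WT replicate 1, 2 and 3). In the related gene lists 3 probes were called, against 12 with normexp and quantile normalization, 15 with a variance trend, 0 without the filter, 0 with the replicate block, 0 without the 2 arrays with Xist signal (58 at an unadjusted limma p under 0.05) and 0 to 1 without 1 array. Same-numbered samples shared a slide column, and their deviations from the group means correlated at 0.06, 0.15 and -0.03 across probes, so they were not treated as pairs, and not every sample correlated best with its own number. The slide could not serve as a block because there was only 1. Signals near background limit the dim probes of Sp7 and Dlx6 and the middle and 5′ Runx2 probes, and so the distances measured from the 5′ probe.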

Other observations

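Antisense transcripts at the members' loci, named here after their values were seen, were read by probes of their own. Runx2os1 read -0.98 ± 0.14 in WT against -0.90 ± 0.12 in KO (SD, 3 arrays each; difference 0.08, 95% interval -0.17 to 0.33; limma adjusted p = 0.778), with the groups overlapping. Runx2os2, Msx1os and the 3 Dlx6os1 probes were not well above background on any array. Dlx6os2 differed by -0.06 between groups (SE 0.08; limma adjusted p = 0.790).

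The genes with the profile nearest to the far 3′ Runx2 probe over the 6 arrays were Sema3b, Myo3b, Vit, Nt5e and Car6. Likeness was the root mean square difference between log2 values centred on each gene's mean, over 15365 other genes, and it was 0.08 for Sema3b and 0.13 for Car6. Their own differences between KO and WT lay between -1.37 (Vit) and -1.11 (Car6), with limma adjusted p from 0.0913 to 0.109. The genes nearest to the brightest Sp7 probe were Ust, Slitrk6, Kcnn1, Wnt5b and Pcdh18, at distances from 0.04 to 0.06. Their differences lay between -0.68 (Slitrk6) and -0.57 (Pcdh18), with limma adjusted p from 0.114 to 0.188. These genes were picked for their likeness over the same 6 arrays, so their differences are a description.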
